A study of Mus musculus with 10 samples.

Results

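Polycomb proteins write and read H3K27me3, the trimethyl mark on lysine 27 of histone H3, and the genes examined here encode 9 proteins of that system: Ezh1, Ezh2, Eed, Suz12, Mtf2, Jarid2, Kdm6b, Cbx2 and Cbx8. They were taken by symbol from the 37310 genes of the GENCODE annotation of the mouse genome build mm9, and all 9 symbols matched exactly 1 gene. For each gene, the bases covered by H3K27me3 peaks were counted from 5 kb upstream of the transcription start site (TSS) to the end of the gene, in each of 5 lymphoma lines. The lines share a Cdkn2a-/- genotype, an Eμ-Myc transgene and a C57BL/6J background. Eμ is an immunoglobulin heavy chain enhancer that drives Myc in B-lineage cells, and Cdkn2a encodes the tumor suppressors Ink4a and Arf. The parental line came from a mouse lymphoma and was not exposed to drug, and R100, R500, R1000 and R4000 are its mafosfamide-resistant sub-lines. Mafosfamide is a DNA-alkylating drug, the names give the dose in nM to which each sub-line was taken, and harvest was on days 10, 18, 23 and 37 of stepwise escalation. All lines were grown without drug for ChIP-seq, and no time since drug withdrawal is given here. Because the study derived a single line per dose, the dose, the time in culture and the particular sub-line cannot be told apart.

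The data are 1 peak list per line, with the position of each peak on a grid of 50-bp bins and no height, score or read count. The lists held 6820 to 25180 distinct peaks covering 1.07 to 5.04 Mb, with R4000 the shortest and R100 the longest. Sequencing depth is unknown, and without replicate lists no difference between lines could be tested. The values below are therefore presence and width of peaks, not levels of the mark. Cdkn2a had no peak in its window in any list, which does not check the deletion, since an undeleted gene can also lack a peak. Of 5 B-cell marker genes (Cd79a, Cd79b, Pax5, Ms4a1 and Ebf1), 0 had a peak in the parental list, 3 in R100 and 2 in each of the other lines, with 0 to 1950 bp covered in all, and Cd79a and Ms4a1 had no peak in any list. Of 4 T-cell markers (Cd3e, Cd3d, Cd4 and Lck), 0 to 3 had a peak, with 0 to 750 bp in all. Of 4 myeloid markers (Csf1r, Itgam, Lyz2 and Cd14), 1 or 2 did, with 1000 to 2100 bp. The myeloid cover was that of Cd14, with 50 bp more at Lyz2 in the parental line and 100 bp in R100. Csf1r and Itgam had no peak in any list. Of all genes, 9.69% (parental) to 25.0% (R100) had a peak. A list of a repressive mark does not measure expression, so the B-cell identity of the lines was not checked further.

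Polycomb repressive complex 2 (PRC2) places H3K27me3 on chromatin. Its enzyme is Ezh2 or the related Ezh1, and the core subunits Eed and Suz12 are needed for its activity. Mtf2 (also called Pcl2) and Jarid2 are accessory subunits that help bring PRC2 to CpG-rich DNA. Cbx2 and Cbx8 belong to canonical Polycomb repressive complex 1 (PRC1) and bind the finished mark through a chromodomain, and Kdm6b (Jmjd3) is a demethylase that removes it. In B cells, Ezh2 is known for its role in germinal centre cells and for activating mutations in lymphoma.

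The sequences below are those on which the description turns. They are read from mm9 on the strand of the gene, 5′ to 3′, and capitals mark CpG dinucleotides, the sites that DNA methyltransferases modify. The first 3 are bases that lay within a peak in all 5 lists. The Cbx8 stretch (chr11:118903576-118903775, minus strand) is the middle 200 bp of a run of 1550 bp and lies 1293 to 1492 bp upstream of the TSS. The Kdm6b stretch (chr11:69231551-69231650, minus strand) is a whole run of 100 bp, 4374 to 4473 bp upstream, and the Jarid2 stretch (chr13:44965001-44965100, plus strand) is a whole run of 100 bp in an intron.
Cbx8: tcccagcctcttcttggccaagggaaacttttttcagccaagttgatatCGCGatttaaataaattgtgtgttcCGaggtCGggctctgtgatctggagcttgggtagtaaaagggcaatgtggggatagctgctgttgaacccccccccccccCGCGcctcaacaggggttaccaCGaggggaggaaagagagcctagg
Kdm6b: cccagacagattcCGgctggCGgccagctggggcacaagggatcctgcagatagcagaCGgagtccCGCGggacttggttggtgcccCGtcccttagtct
Jarid2: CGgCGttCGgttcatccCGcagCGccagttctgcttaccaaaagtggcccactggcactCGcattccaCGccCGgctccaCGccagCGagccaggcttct
The Jarid2 stretch held 10 CpG in 100 bp, or 100 per kb, against 9.39 per kb over its whole window. In Cbx8 the 2250 bp covered in all lists held 50.7 CpG per kb, against 40.7 in the whole window. In Cbx2 the 450 bp covered in all lists were less GC-rich than the window, with 46.0% against 53.5%, although they held more CpG, 33.3 against 27.7 per kb. At Kdm6b the 100 bp held 60.0 CpG per kb, against 32.5 in the window. At these 4 genes the bases covered in every list, counted over all such bases of a gene, were thus richer in CpG than the window. The Cbx8 stretch shown above was not. It held 7 CpG in 200 bp, fewer per kb than the whole Cbx8 window. Its ratio of observed to expected CpG was 0.484, against 0.519 in that window.

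The next 3 sequences are peaks at genes of PRC2 itself and show how little of these genes was covered. The Ezh2 sequence is the R1000 peak (chr6:47545751-47545800, minus strand), the Suz12 sequence is the R500 peak (chr11:79807251-79807300, plus strand), and the Mtf2 sequence is the R500 peak (chr5:108495001-108495100, plus strand).
Ezh2: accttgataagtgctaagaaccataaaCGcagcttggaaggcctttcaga
Suz12: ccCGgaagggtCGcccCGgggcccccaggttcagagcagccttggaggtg
Mtf2: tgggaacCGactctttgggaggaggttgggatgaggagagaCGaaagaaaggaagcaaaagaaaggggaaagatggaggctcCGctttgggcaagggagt
They held 1 CpG in 50 bp at Ezh2, 3 in 50 bp at Suz12 and 3 in 100 bp at Mtf2. All 3 were poorer in CpG than the Jarid2 stretch. The Suz12 peak was as dense in CpG as the Kdm6b stretch, which held 6 in 100 bp. It was denser than the Cbx8 stretch, which held 7 in 200 bp, while the Ezh2 and Mtf2 peaks were less dense than both. By the ratio of observed to expected CpG the order was another. The ratio was 0.649 at Mtf2, 0.569 at Kdm6b, 0.484 at Cbx8, 0.441 at Suz12 and 0.413 at Ezh2.

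Peaks were present at 7 of the 9 genes in at least 1 list. Over the window of each gene, 4 of the 9 had a peak in the parental line, where 9.69% of all annotated genes did, 5 in R100 (25.0% of all genes), 6 in R500 (20.1%), 6 in R1000 (12.0%) and 4 in R4000 (10.4%). Jarid2, Kdm6b, Cbx2 and Cbx8 had a peak in all 5 lists, as did 5.24% of all genes. Ezh1 and Eed had none in any list, as did 68.4% of all genes. Ezh2, Suz12 and Mtf2 had a peak in some lists and not in others. With at least 150 bp asked for, 3 of the 9 remained in the parental line (5.82% of all genes), 4 each in R100 (15.8%), R500 (12.7%) and R4000 (5.39%), and 3 in R1000 (6.63%). Windows differed in length, from 9.66 kb at Cbx8 to 197 kb at Jarid2, and a longer window has more room for a peak. The shares are over all 37310 annotated genes, of which 22380 are protein-coding. The 9 genes encode proteins, and no share among protein-coding genes is given here.

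**Figure D1:**
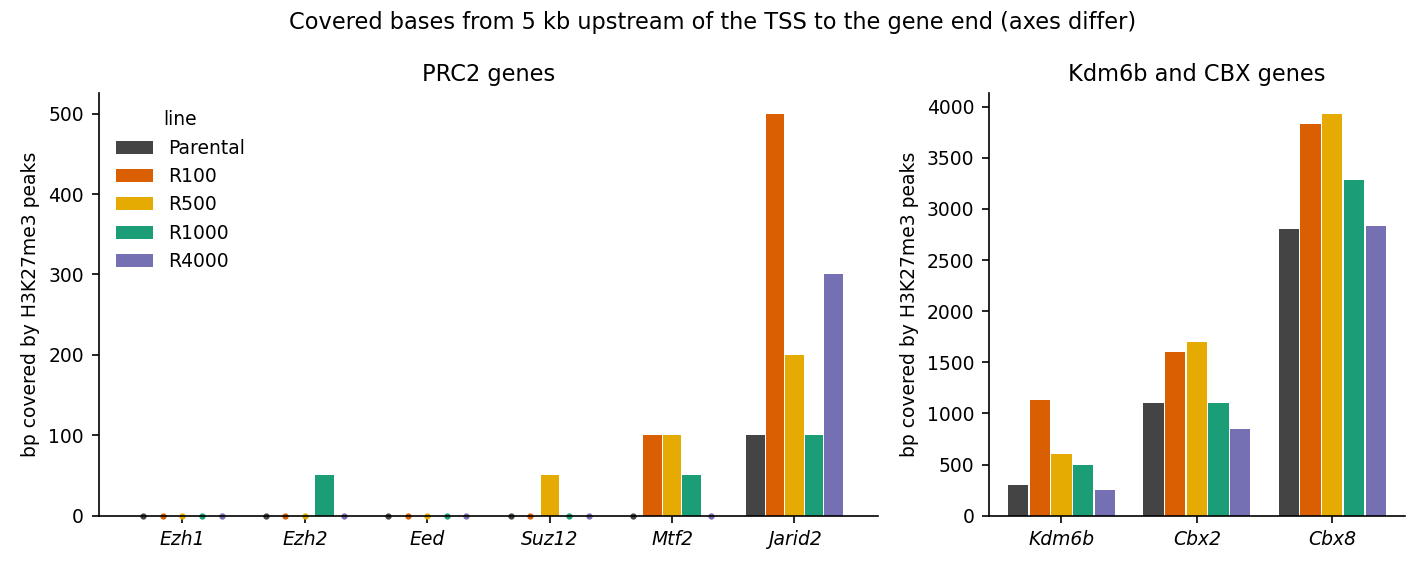
Bases covered by H3K27me3 peaks (bp, vertical axis, different scales in the panels) at each gene, with 1 bar per line and a dot at 0 where a list had no peak; each bar is a single list, so there is no error bar. The bars at Cbx8 stand at 2800 to 3933 bp, while those at Ezh1, Ezh2, Eed and Suz12 stand at 0 or 50 bp.

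The enzymes and core subunits of PRC2 had a peak in at most 1 list each. At least 68.4% of all genes did too, since that share had none in any list. Ezh1 (chr11:101052429-101087777) and Eed (chr7:97103166-97129493) had 0 covered bases in the parental line and in all 4 resistant lines. Ezh2 (chr6:47480273-47545340) was covered over 0 bp in 4 lists and over 50 bp in R1000, at a single peak 411 to 460 bp upstream of its TSS. Suz12 (chr11:79806608-79847625) was covered over 0 bp in 4 lists and over 50 bp in R500, in an intron 643 to 692 bp downstream of its TSS. Both peaks are 50 bp wide, the narrowest the lists hold, and 33.9% of all R1000 peaks and 30.6% of all R500 peaks have that width. With peaks of 50 bp left out, all 4 genes were at 0 bp in every list. The windows of these genes run from 31.3 to 70.1 kb and hold 2 peaks over the 5 lists together.

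Of the accessory subunits, Mtf2 had narrow peaks in 3 lists and Jarid2 a peak in all 5. Mtf2 (chr5:108494693-108538023) had 0 covered bases in both the parental line and R4000, 100 bp in both R100 and R500, and 50 bp in R1000. The peaks lie just downstream of the TSS, at 158 to 257 bp in R100, in the 5′ untranslated part of an exon, and in an intron at 308 to 407 bp in R500 and 308 to 357 bp in R1000. The R100 peak therefore shares no base with the other 2. A cover of 100 bp or more was found at 20.4% of all genes in R100 and at 16.2% in R500, so Mtf2 does not stand out in either list.

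Jarid2 (chr13:44824843-45017012) had 100 bp of cover in the parental line, against 500 (R100), 200 (R500), 100 (R1000) and 300 bp (R4000). The resistant lines lay at or above the parental value, with R100 highest. In every list the cover lies in a single intronic place 140 kb from the gene start and 28.8 kb past the nearest annotated Jarid2 transcript start upstream of it, where the parental peak of 100 bp falls wholly within the peaks of the 4 resistant lines. R4000 had a further peak of 50 bp, in the untranslated part of an exon 358 to 407 bp downstream of the TSS. Because the window is long, the covered share of it was small, from 0.0507% in the parental line to 0.254% in R100. In R4000, 3.21% of all genes had at least as many covered bases as Jarid2, against 7.60% in the parental line and 7.40% in R100.

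The demethylase gene Kdm6b (chr11:69212010-69227177) had 300 bp of cover in the parental line, against 1127 (R100), 600 (R500), 500 (R1000) and 250 bp (R4000). R100, R500 and R1000 lay above the parental line and R4000 50 bp, or 1 bin, below it. Nearly all of the cover is at a single site upstream, at 4374 to 4673 bp from the TSS in the parental line, 3974 to 5023 bp in R100, 4074 to 4673 bp in R500, 4024 to 4523 bp in R1000 and 4224 to 4473 bp in R4000. The site overlaps no annotated exon and lies between Kdm6b and the 3′ end of Dnahc2, an axonemal dynein gene that ends 7.13 kb from the Kdm6b TSS. R100 alone had a second peak, of 100 bp, in an intron 2077 to 2176 bp downstream. No list had a peak within 2 kb of the Kdm6b TSS on either side.

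**Figure D2:**
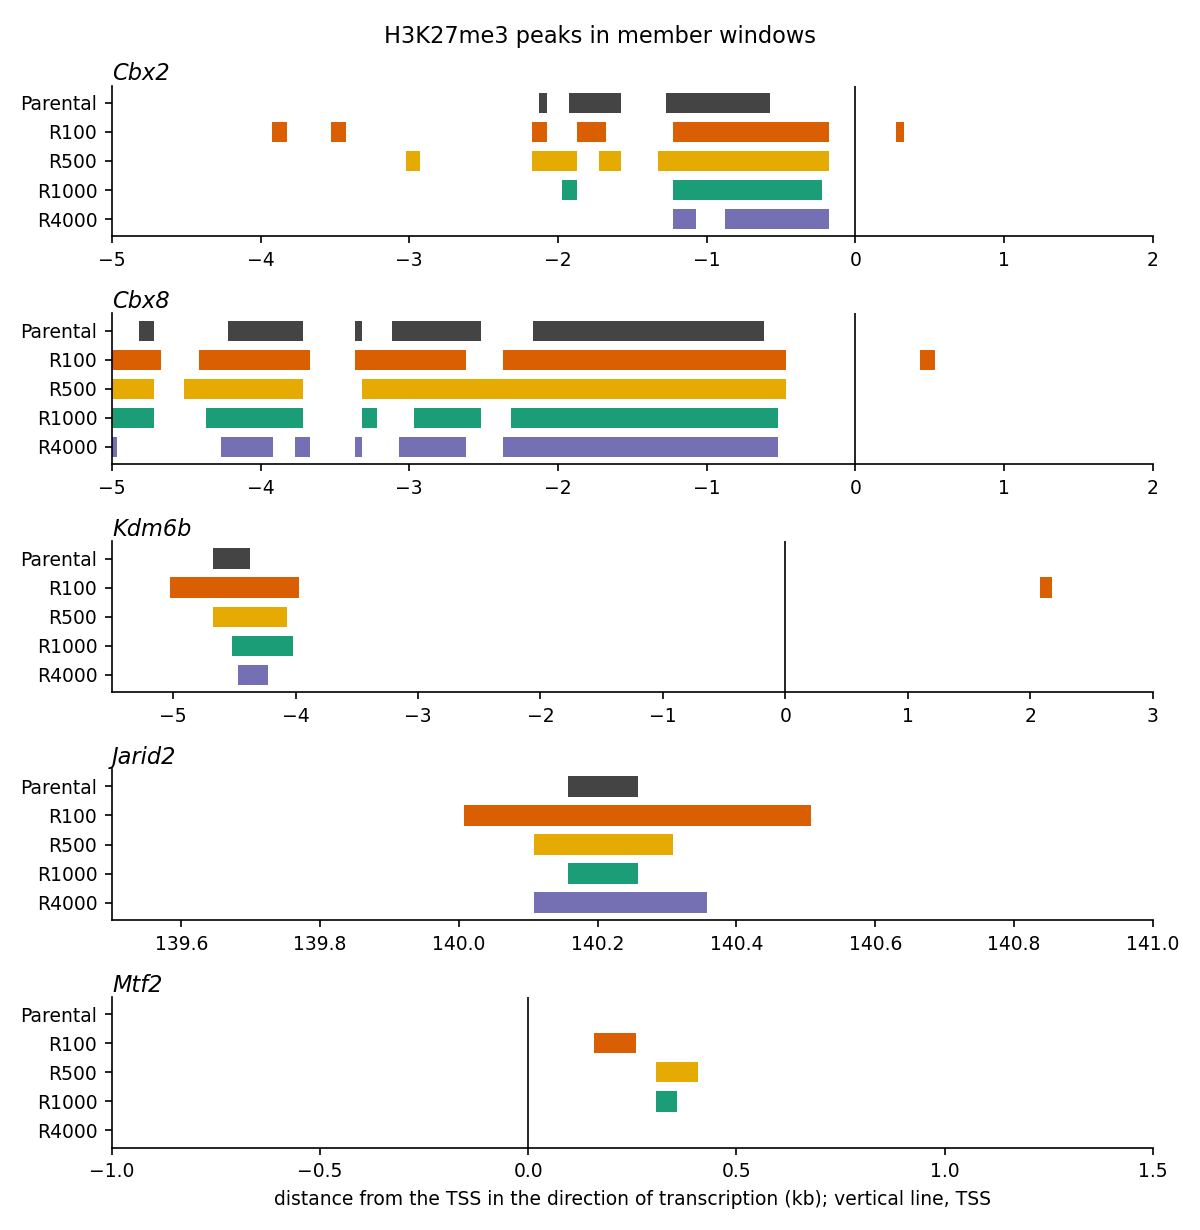
Position of each H3K27me3 peak (horizontal bars) as distance from the TSS in kb, in the direction of transcription, for Cbx2, Cbx8, Kdm6b, Jarid2 and Mtf2, with 1 row per line. The upstream peaks of Cbx8 and Cbx2 reach to within 1 kb of the TSS, those of Kdm6b stop 3974 bp or more from it, and the Jarid2 peaks overlap each other 140 kb from the gene start; the R4000 peak of Jarid2 near its TSS is outside the range shown.

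The CBX genes carried most of the cover, with 3900 of 4300 bp (90.7%) in the parental line and 75.9 to 87.0% in the resistant lines. Cbx2 (chr11:118884276-118892584) had 1100 bp of cover in the parental line, against 1600 (R100), 1700 (R500), 1100 (R1000) and 850 bp (R4000). R100 and R500 were above the parental value, R1000 equal to it and R4000 below it. As a share of its window of 13.3 kb this is 8.27, 12.0, 12.8, 8.27 and 6.39%. The widest Cbx2 peak, 700 to 1150 bp wide, lay upstream in each list, and its near end was 576 bp from the TSS in the parental line, 226 bp in R1000 and 176 bp in the other lines. Of the 1100 parental bases, R100 covered 81.8%, R500 86.4%, R1000 63.6% and R4000 40.9%, so the equal total in R1000 comes from partly different bases.

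Cbx8 (chr11:118897619-118902283) had 2800 bp of cover in the parental line, against 3833 (R100), 3933 (R500), 3283 (R1000) and 2833 bp (R4000). R100 and R500 were highest, and R4000 was 33 bp, less than 1 bin, above the parental value. Per length it was the most covered of the 9 genes in each line, with 29.0, 39.7, 40.7, 34.0 and 29.3% of its window of 9.66 kb. At most 0.488% of all genes had as many covered bases, in R100, and 0.110% in R4000. All but 100 bp in R100 lay upstream of the TSS. Of the 4183 bp covered in any list, 2250 bp were covered in all 5, against 450 of 2100 bp at Cbx2, 100 of 1127 bp at Kdm6b and 100 of 550 bp at Jarid2, and 96.4, 98.2, 92.9 and 85.7% of the parental bases were found in R100, R500, R1000 and R4000.

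The cover of Cbx8 ran past the edge of its window. Counted from 10 kb upstream, an extent chosen after seeing the data, Cbx8 had 5733 bp of cover in the parental line, against 7783 (R100), 8183 (R500), 5850 (R1000) and 5100 bp (R4000). R500 and R100 were again highest, and R4000 was here below the parental line. Cbx2 had 1100, 1900, 1800, 1100 and 850 bp in the longer window, little more than in the shorter one. The genes lie tail to tail, with 18 kb between their TSSs, and their bodies were free of peaks except for 50 bp at Cbx2 and 100 bp at Cbx8 in R100.

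**Figure D3:**
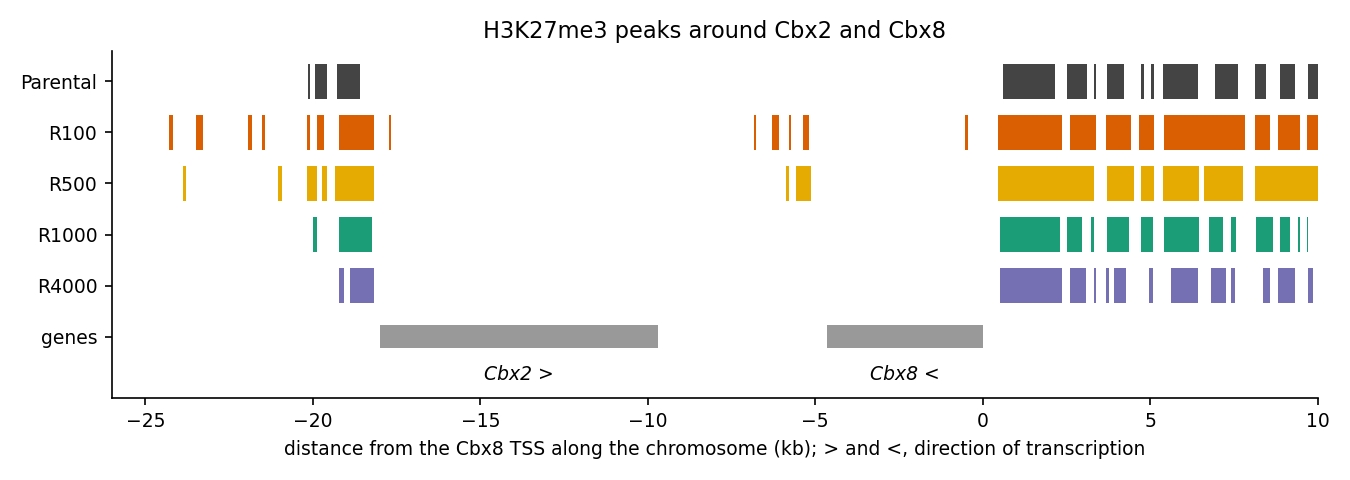
H3K27me3 peaks (colored bars, 1 row per line) and the bodies of Cbx2 and Cbx8 (grey), as distance from the Cbx8 TSS in kb along the chromosome; bars are drawn up to 10 kb upstream of Cbx8. Peaks lie upstream of both genes in every line, with 5100 (R4000) to 8183 bp (R500) covered from 10 kb upstream of Cbx8 to its end.

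Against the parental line, 5 of the 9 genes had more covered bases in R100 (23.9% of all genes), 6 in R500 (19.0%), 4 in R1000 (8.69%) and 2 in R4000 (6.44%). Fewer covered bases were found at 0 of the 9 in R100 (1.92% of all genes), R500 (2.05%) and R1000 (5.55%), and at 2 in R4000 (7.12%), namely Kdm6b and Cbx2. A difference of at least 2-fold upward, or a peak where the parental list has none, was found at 3 genes in R100 (22.5% of all genes), Mtf2, Jarid2 and Kdm6b. In R500 it was found at 4 (17.4%), the same 3 and Suz12, in R1000 at 2 (7.01%), Ezh2 and Mtf2, and in R4000 at 1 (5.51%), Jarid2. No gene of the 9 differed 2-fold downward in any line, while 1.57, 1.70, 4.14 and 5.74% of all genes did in R100, R500, R1000 and R4000. Only a gene with parental cover can have less, so only 4 of the 9 could. The genes that differed 2-fold downward number 584, 636, 1543 and 2142 in the same order, all among the 3628 with any parental cover. All these differences are sizes and not calls of a test, and the 4 comparisons share the parental list. Of 3628 genes with any parental cover, 68.4% had more in both R100 and R500, as did 4 of the 4 members with such cover, and 73.2% had fewer in R4000, as did 2 of the 4.

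The lists as a whole were longer in R100 and R500, so the ratios at the 4 genes with parental cover were set beside those of other genes. Among 3617 genes with at least 50 bp in the parental list, the median ratio to the parental line was 2.50 (R100), 2.23 (R500), 0.750 (R1000) and 0.333 (R4000). Kdm6b had 3.76, 2.0, 1.67 and 0.833 times the parental cover in the same order. It was above the median in R100, R1000 and R4000 and below it in R500. These genes include those with as little as 50 bp of parental cover. No set nearer to the 300 bp of Kdm6b was drawn, and the medians below change with the minimum asked for. Jarid2 had 5.0, 2.0, 1.0 and 3.0 times, from a parental value of 2 bins, and its R4000 ratio was above the upper quartile of 1.0. Among the 460 genes with at least 1000 bp in the parental list, a minimum chosen after the values had been seen, the medians were 1.77, 1.77, 0.902 and 0.606. Cbx2 had 1.45, 1.55, 1.0 and 0.773 times its parental cover and Cbx8 1.37, 1.40, 1.17 and 1.01 times, which is below the median in R100 and R500 and above it in R1000 and R4000. Among the 87 genes with at least 2500 bp in the parental list, nearer to the 2800 bp of Cbx8, the medians were 1.49, 1.57, 0.954 and 0.745, so Cbx8 lay on the same sides of the median but closer to it. The Cbx8 differences also depended on gaps between peaks: with peaks within 1000 bp joined, Cbx8 exceeded the parental 4383 bp by 1150 (R100), 150 (R500), 100 (R1000) and 100 bp (R4000). The comparison genes were picked by their parental cover, the denominator of the ratio.

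**Figure D4:**
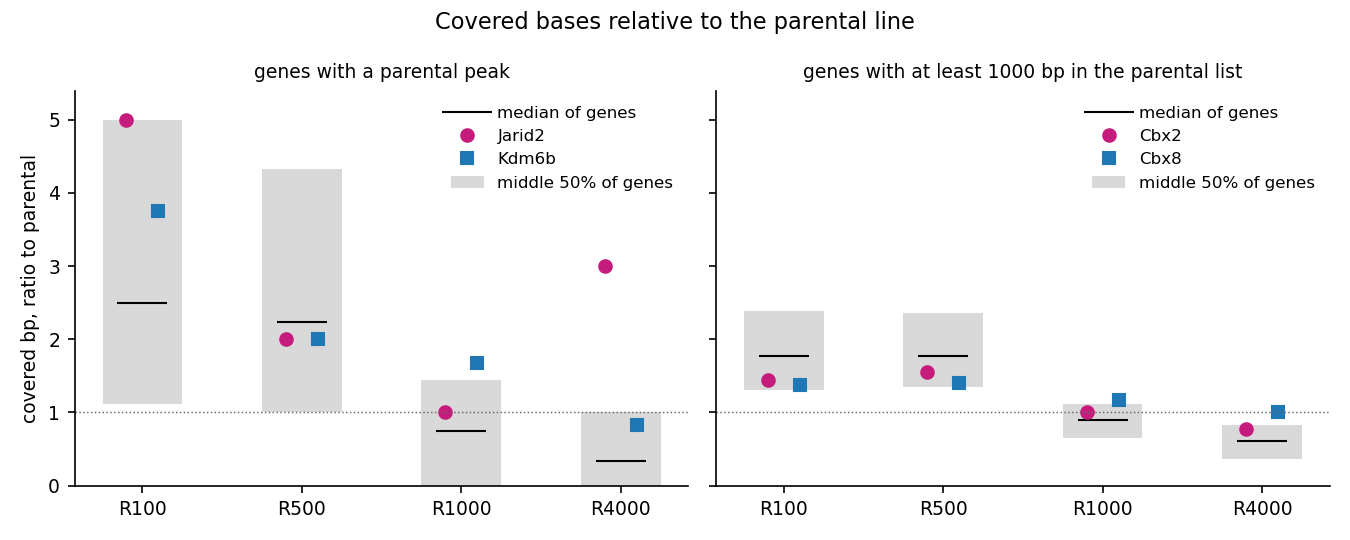
Covered bases in each resistant line divided by those in the parental line (vertical axis), for Jarid2 and Kdm6b (left) and Cbx2 and Cbx8 (right), over grey bars for the middle 50% of the comparison genes and black lines for their median; the dotted line is a ratio of 1. Cbx8 stays between 1.01 and 1.40 while the median of the 460 comparison genes runs from 1.77 to 0.606.

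When only the 6820 widest peaks of each list were kept, as many as R4000 has, Cbx8 was covered over 2750 bp (parental), 3733 bp (R100), 3933 bp (R500), 3283 bp (R1000) and 2833 bp (R4000), and Cbx2 over 1050, 1250, 1450, 1100 and 850 bp. The higher values of R100 and R500 at the CBX genes were thus also present in lists of equal number, which still differ in peak width. Kdm6b kept 300, 1027, 600, 500 and 250 bp. The reduced lists favour wide peaks by construction, and the peaks of Ezh2, Suz12 and Mtf2, 50 or 100 bp wide, were not in them.

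Genes whose cover was most like that of a member were found by the sum of absolute differences over the 5 lists, among protein-coding genes outside the Polycomb lists. Nearest to Cbx8 were Tlx2, Mest and Gm1337, at 1864, 2166 and 2384 bp against 16682 bp of summed cover. Nearest to Cbx2 were Hectd2, Acvr2b and Arg2, at 200, 650 and 750 bp. Hectd2 was covered over 1100, 1600, 1750, 1150 and 750 bp in the order of the lines, within 100 bp of Cbx2 in each. Nearest to Kdm6b were Tpm2, Rragd and Wnt16, at 273, 327 and 373 bp, and nearest to Jarid2 were Sftpc, Mtpn and Rnf144a, at 156, 200 and 200 bp, with 3 genes tied at 200 bp and taken in genome order. The likeness is over 5 lists and is a description.

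Cover of at least 500 bp at other Polycomb genes was found in PRC1 genes. A further list of 35 symbols held 34 genes of the annotation, and 13 of them had a peak in the parental line, with 21 (R100), 16 (R500), 10 (R1000) and 12 (R4000) in the others, where 9.69, 25.0, 20.1, 12.0 and 10.4% of all genes did. A peak in all 5 lists was found at 6 genes, all of them of PRC1, and a peak in no list at 9, as at 5.24 and 68.4% of all genes. More covered bases than in the parental line were found at 18 (R100), 13 (R500), 6 (R1000) and 5 genes (R4000), and fewer at 1, 3, 7 and 10, where 23.9, 19.0, 8.69 and 6.44% of all genes had more and 1.92, 2.05, 5.55 and 7.12% fewer. The 6 other PRC2 genes, Phf1, Phf19, Aebp2, Rbbp4, Rbbp7 and Lcor, had no peak in the parental line, like most genes, and at most 350 bp in any line (Phf19, R100). The other H3K27 demethylase genes had almost none, with 50 bp at Kdm6a in R1000 and 0 bp at Uty in every list. Ring1, Pcgf6, Yaf2 and Scml2 were the PRC1 genes of the list with no peak in any line.

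Among the 22 other PRC1 genes, 6 had at least 500 bp in some line. Pcgf2, which encodes a RING finger partner of the PRC1 ubiquitin ligases, was covered over 800, 2800, 2200, 1150 and 650 bp in the parental line, R100, R500, R1000 and R4000. Of its 3100 bases covered in any list, 2988 also lie in the window of the proteasome gene Psmb3, so they cannot be given to Pcgf2 alone. Its paralog Bmi1 was covered over 1056, 1706, 1306, 1056 and 1200 bp, and 706 of its 1956 bases lie in the window of Commd3 too. Rybp, a subunit of variant PRC1, was covered over 1350, 1750, 1600, 900 and 850 bp, all of it upstream and shared with no other gene. Bcor, a subunit of the PRC1 form that holds Pcgf1, was covered over 750, 3831, 3500, 1000 and 400 bp, with 3172 of 7131 bases shared with the window of 2900008C10Rik, and its paralog Bcorl1 over 150, 800, 750, 450 and 100 bp, of which 50 lie in the window of AL672246.1 too. Pcgf1 was covered over 0, 900, 450, 400 and 0 bp, all upstream, where its window shares bases with those of Tlx2 and Gm20423. Per length, Bcor had 0.583% of its window covered in the parental line and 2.98% in R100, below Cbx8 and Cbx2 in each line. Cbx8 was above all 6 of these genes in each line, but Cbx2 was not. Pcgf2 had 16.8% in R100 and 13.2% in R500, against 12.0 and 12.8% at Cbx2. Pcgf1 had 12.1% in R100, and Bmi1 had 8.21% in R4000, where Cbx2 had 6.39%. In the parental line and R1000, Cbx2 was above all 6. R100 was the highest line at all 6 of these genes.

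**Figure D5:**
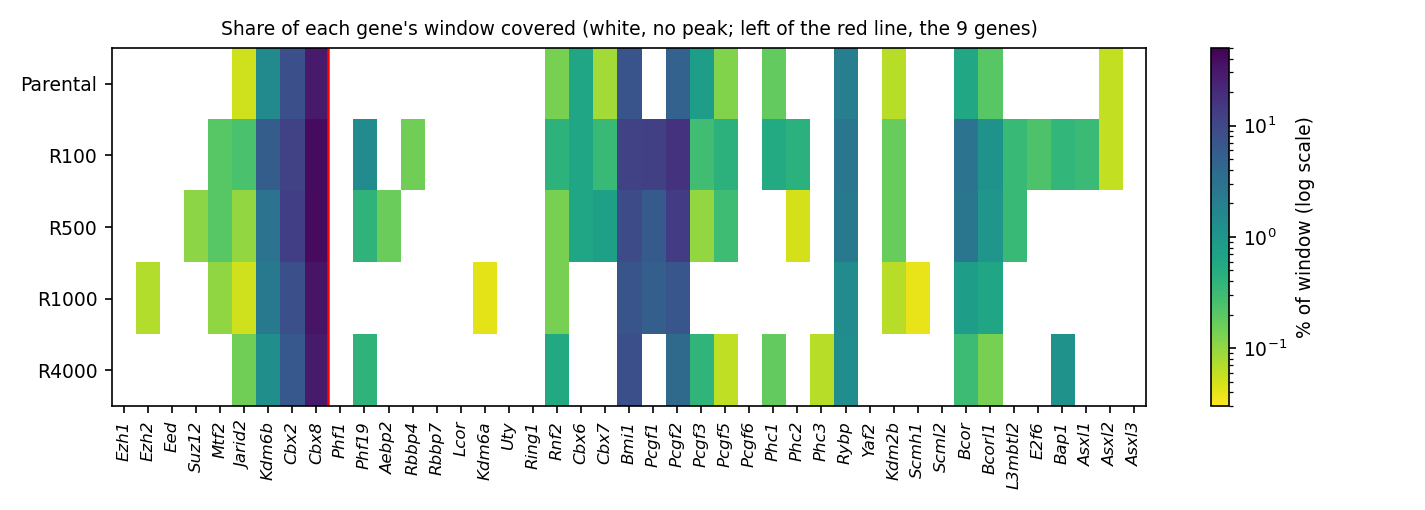
Share of each gene's window covered by H3K27me3 peaks (color, percent, log scale) in the 5 lists, for the 9 genes (left of the red line) and 34 other Polycomb genes; white means no peak. Cbx8 is darkest in every row, at 29.0 to 40.7%, and the PRC2 genes from Ezh1 to Suz12 are white but for 1 cell each at Ezh2 and Suz12.

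A CpG-rich TSS was found at genes with and without cover. Over 1 kb to each side of the TSS, the ratio of observed to expected CpG was highest at Ezh2 (0.888) and Eed (0.885), followed by Suz12 (0.848), Cbx2 (0.836), Jarid2 (0.808) and Ezh1 (0.720). Mtf2 had 0.652, Cbx8 0.630 and Kdm6b 0.188, where the median of 22362 protein-coding genes was 0.468. Hence 8 of the 9 genes were above the median, among them the genes with no peak. Kdm6b, with a peak in every list, was below it. These ratios are those of the TSS and not of the covered bases. No list had a Kdm6b peak within 2 kb of the TSS, and the shared Jarid2 site lies 140 kb from the gene start. The Kdm6b bases covered in all lists had a ratio of 0.569.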

How the data were processed

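H3K27me3 ChIP-seq was used for 5 mouse lymphoma lines. The 5 RRBS samples were not analysed here. The authors sequenced 50-bp reads and called a peak where a Poisson model found more ChIP than input reads in a window. The submitters' processing notes name Bowtie and mm9. The values deposited by the authors are other than counts: 3 columns per peak, chromosome, start and end in bp on a grid of 50 bp. For promoters the study asked for at least 3 enriched bins within 5 kb upstream of the TSS. The 150 bp minimum used here as an alternative has that length but counts the whole window to the gene end, so it is not the study's criterion. The study gives 2 replicates per line. The threshold behind the deposited lists, and whether they pool replicates, are not given in the sources used here. In 2 of the lists, R100 and R500, all peaks are given 2 times, so duplicates were dropped. No peak exceeded its chromosome's length in the NCBIM37 (mm9) reference.

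Covered bases were counted in Python 3.11.15 with numpy 2.4.6, from 5 kb upstream of the TSS to the gene end in GENCODE M1. The step was tested on simulated data, where 0 of 1200 windows differed from a base-by-base count. A gene had a peak from 50 bp on. Sequence was read with pysam 0.24.0, and figures were drawn with matplotlib 3.10.9. With 1 list per line no test was made. The named genes are the 9 members, the other Polycomb genes with at least 500 bp in a line, the 3 genes most like each member with at least 500 bp in all, Cdkn2a, cell type markers and genes that share covered bases. Polycomb genes without 500 bp and the neighbour Dnahc2 were named after their values had been seen. The members and lists were chosen with earlier results of these data known. Alternatives were wider peaks, a minimum of 150 bp, other windows, lists of equal number and joined peaks. A Polycomb gene, a B-cell marker and a sequence are not reported here and enter no count of those lists.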

Additional observations from a re-analysis of the deposited data

Results flagged for a closer look

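At Kdm6b and Cbx2 the resistant lines lay on opposite sides of the parental line. Kdm6b differed from the parental cover by 827 (R100), 300 (R500), 200 (R1000) and -50 bp (R4000). Cbx2 differed by 500, 600, 0 and -250 bp in the same order. With 1 list per line these differences between lines were not tested, and the Kdm6b difference in R4000 is 1 bin.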

How the results depend on the processing

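The number of genes with a peak depended on the window. It stayed within 1.5 times its value in all 5 lines with peaks at least 100 bp wide, lists of equal number, peaks within 1000 bp joined, and a window from 10 kb upstream. The last was chosen after seeing the data. The differences between lines were not kept in all of these. In lists of equal number the count was 4 in every line, and with peaks at least 100 bp wide R1000 had 4 instead of 6. In the 5 kb upstream alone it was 3 in R100 and 3 in R500. With 2 kb to each side of the TSS it was 2 in the parental line and 3 in R100. In the gene body alone it was 1 in the parental line, 3 in R500, 2 in R1000 and 1 in R4000. From 150 bp on it was 3 in R1000. By construction the upstream window leaves out the peaks of Jarid2, Mtf2 and Suz12, the window around the TSS leaves out the Kdm6b site and the intronic Jarid2 site, and the gene body leaves out the upstream peaks. The difference between R4000 and the parental line at Cbx8, 33 bp, became -633 bp with 10 kb upstream. No other difference between a resistant line and the parental line changed sign, but sizes moved. At Cbx8, R500 minus parental went from 1133 to 150 bp and R1000 minus parental from 483 to 100 bp, both with peaks within 1000 bp joined and with 2 kb to each side of the TSS, where the Kdm6b differences were all 0. Unknown depth limits every comparison of width between lines.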

Other observations

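Past the 5 kb edge of the Kdm6b window, the 2133 bp up to the end of Dnahc2 held 100 bp of cover in the parental line, against 1383 (R100), 700 (R500), 0 (R1000) and 0 bp (R4000). Counted from 10 kb upstream, Kdm6b had 600 bp of cover in the parental line, against 3500 (R100), 1750 (R500), 600 (R1000) and 500 bp (R4000), and R1000 then equalled the parental line. Ezh1 had 100 bp in R500 in that longer window and 0 bp in the other lines. Part of this stretch lies within Dnahc2, so it cannot be given to Kdm6b alone.

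The 5.03 kb between the 3′ ends of Cbx2 and Cbx8 held 500 (R100) and 550 bp (R500) of cover, and 0 bp in the parental line, R1000 and R4000.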
